A study of Homo sapiens with 18 samples.

Results

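The genes described here encode 9 leukocyte adhesion molecules: the intercellular adhesion molecules ICAM1, ICAM2 and ICAM3, the integrin chains ITGAL, ITGB2, ITGB1 and ITGB7, the selectin ligand SELPLG and the hyaluronan receptor CD44. They were taken by gene symbol and are 9 of the 56609 genes in the count table. The RNA came from EBV-positive cell lines, HG3, MEC2 and PCL12, derived from chronic lymphocytic leukemia (CLL), with mutated IGHV genes in MEC2 and unmutated ones in the other lines. Cells of each line were cultured with ODN-2006, a class B CpG oligonucleotide that activates human TLR9, at 2.5 µg/ml for 4 h, or were left unstimulated, with 3 libraries for each of these 6 groups. Each replicate number holds 1 stimulated and 1 unstimulated library of a line. The sources do not state whether the replicates were separate cultures, so the P values measure the spread between these libraries, which may be technical. Each is a single established line, which the methods describe as grown in RPMI medium with serum.

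Leukocytes attach to other cells in steps. Selectins bind carbohydrate carried by ligands such as SELPLG and CD44 during rolling, and integrins, which are pairs of an alpha and a beta chain, then bind ligands of the immunoglobulin superfamily or of the matrix. The pair of ITGAL and ITGB2 is LFA-1, the receptor of the ICAMs, and lymphocytes also carry the ICAMs themselves, so that they can bind one another. ITGB1 and ITGB7 both pair with ITGA4, as VLA-4 and as the gut-homing integrin of lymphocytes, and CLL cells depend on such contacts in lymphoid tissue.

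The libraries held 20382943 to 67308932 counts, and all 9 genes were among the 31872 genes tested. The B cell markers MS4A1, CD79A, CD79B, PAX5 and CD22 were above 0 in every library, with 597 to 1712 CPM (counts scaled to library size) for MS4A1 and 200.3 to 1002 CPM for CD79A, while the monocyte markers summed to at most 2.53 CPM and the endothelial ones to at most 1.86 CPM. Libraries with a high share of mitochondrial counts were HG3 unstimulated replicate 2 (20.2%) and MEC2 CpG replicate 2 (19.7%), and in the others the share was 2.82% to 9.28%. PCL12 replicates 2 and 3 differed from replicate 1 in genes that are high in MEC2. For 45 genes chosen for a level of 20 CPM or more throughout MEC2 and of no more than 10% of it in PCL12 replicate 1, the median level in PCL12 replicates 2 and 3 was 29.1% to 31.3% of that in MEC2. In replicate 1 it was 2.26% and 2.36%, a low value that the choice of the genes had fixed. Whether replicates 2 and 3 hold RNA of another line was not tested, and each PCL12 mean and difference over all libraries includes them. Values for PCL12 replicate 1 alone are therefore given beside many of the results, from a single library per condition that is assumed to vary like the other groups. NFKBIZ, the gene of the NF-κB cofactor IκBζ, was taken as a check of the stimulation. Its Log2FC was 2.20 in MEC2 (edgeR, adjusted p = 0.0154), 1.71 in PCL12 (adjusted p = 0.541, or 2.56e-11 in edgeR and 0.00802 in limma-voom with the replicate pairs as a block, and with replicate 1 alone a Log2FC of 2.19 with an edgeR adjusted p of 1) and 0.66 in HG3 (adjusted p = 1), and it was higher in 9 of 9 replicate pairs.

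The first question was whether CpG changed the adhesion genes. ICAM1 and CD44 were the only 2 of the 9 genes with higher levels after CpG in all 9 replicate pairs, a pattern shown by 0.298% of all genes tested, and by 0.732% of the 10659 genes that averaged 5 CPM or more. With 1 mean per group in edgeR, 0 of the 9 genes passed an adjusted p of 0.05 in HG3 (0.00314% of all genes did), in MEC2 (0.00314%), in PCL12 (0%) or in the mean of the 3 lines (0.00941%), and none met the definition of a P value under 0.01 with |Log2FC| of at least 1, which 0.496%, 0.251%, 0.116% and 0.527% of all genes met in these comparisons. DESeq2 and limma-voom also called 0 of them. At an unadjusted P under 0.05 the edgeR counts were 0 in HG3 (3.73% of all genes), 2 in MEC2 (2.46%), 1 in PCL12 (2.09%) and 2 in the mean (4.04%). When the replicate number of each line was added as a block, ICAM1 passed in MEC2 (0.333% of all genes passed), and ICAM1 and CD44 passed in the mean of the 3 lines (0.555%). In the same blocked fit none of the 9 genes passed in HG3 (0.135%) or PCL12 (0.0471%). Blocked edgeR P values rest in effect on a spread estimated over many genes, and not on that of the single gene.

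**Figure D1:**
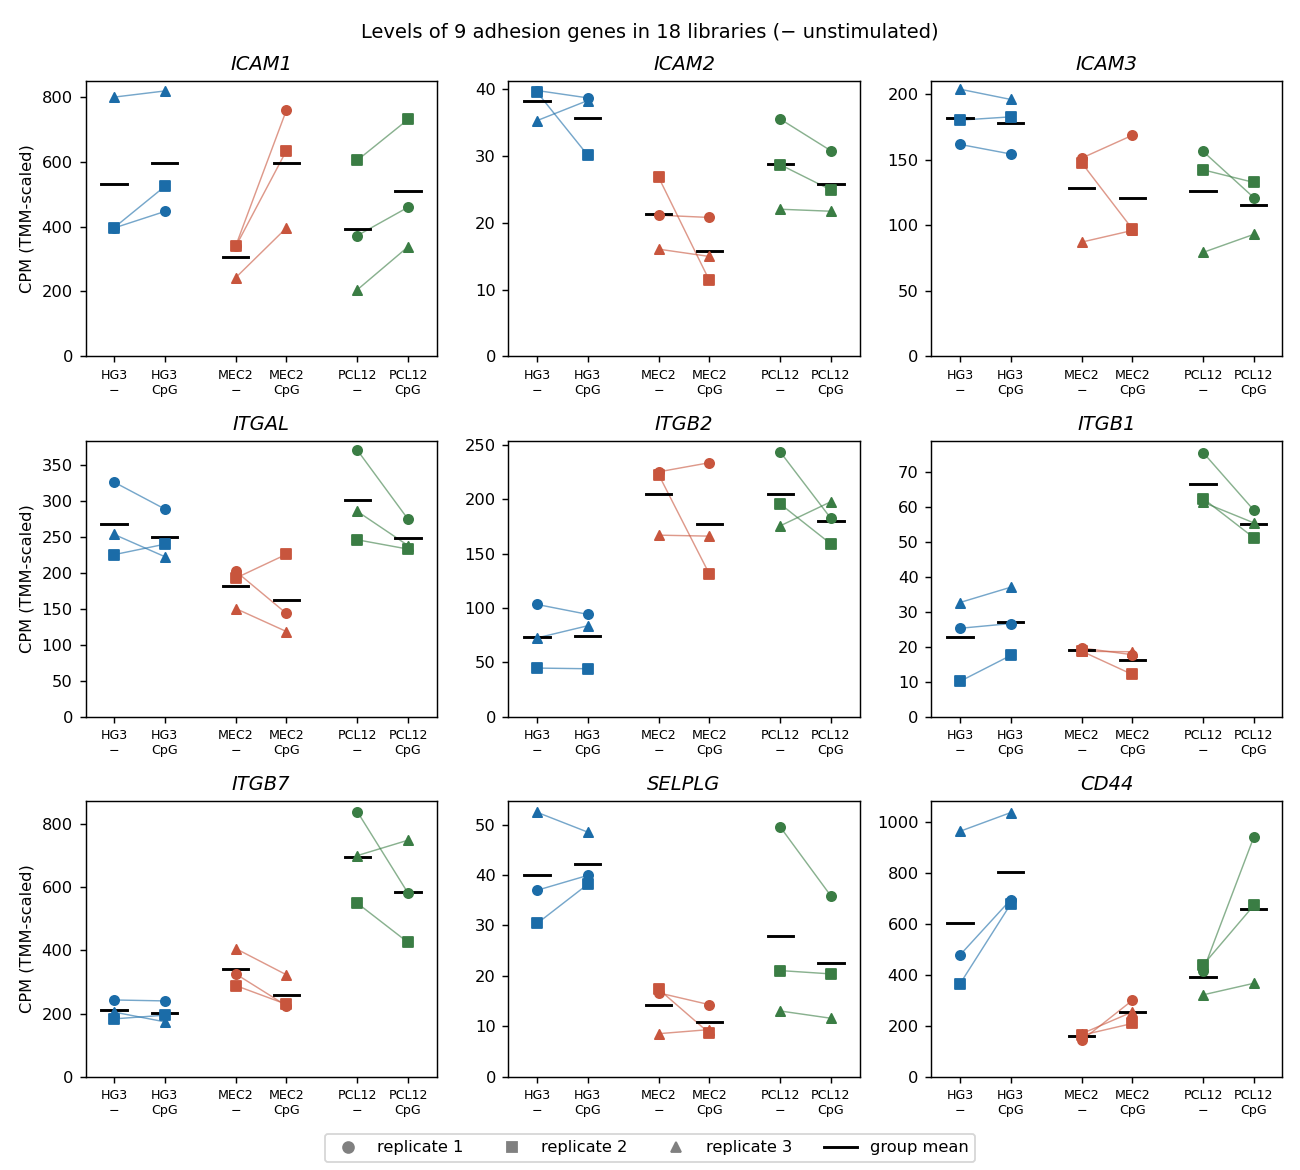
Levels of the 9 genes in CPM scaled with TMM factors (vertical axes, linear, each starting at 0) for the 6 groups on the horizontal axes, with "−" for unstimulated libraries. Circles, squares and triangles are replicates 1, 2 and 3, thin lines join the libraries of a replicate pair, and black bars are means of 3 libraries; all lines for ICAM1 and CD44 go up.

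ICAM1 is the inducible ICAM, and its transcription is a well-known target of NF-κB. In unstimulated MEC2 its level was 340.4, 339 and 243 CPM in replicates 1, 2 and 3, and after CpG it was 758, 634 and 396 CPM. These MEC2 groups did not overlap, which 2.52% of all genes showed in this direction, and the means were 307 ± 56.0 and 596 ± 184 CPM (SD, n = 3). The Log2FC was 0.96 (SE 0.37, 95% confidence interval 0.19 to 1.72, edgeR adjusted p = 1). With the replicate block it was 0.92 (adjusted p = 0.00675 in edgeR and 0.00877 in limma-voom). Over genes that averaged 5 CPM or more, MEC2 replicates 1 and 2 correlated more across their numbers (0.487 and 0.443) than within them (0.306 and 0.0853).

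In HG3 the ICAM1 level was 395.5, 396.5 and 798 CPM without CpG, and after CpG it was 446, 523.5 and 817 CPM. The HG3 groups overlapped, since replicate 3 stood above the other replicates in both conditions. The Log2FC of ICAM1 in HG3 was 0.17 with a 95% confidence interval from -0.59 to 0.93. It ran from -0.13 to 0.59 when 1 HG3 library was left out, and was -0.0032 without the libraries of high mitochondrial share. PCL12 had 372, 604 and 205 CPM without CpG and 459, 729.6 and 337.5 CPM with it. The PCL12 groups overlapped, with replicate 2 the highest in both conditions, and the Log2FC was 0.37 (95% confidence interval -0.39 to 1.13) with all libraries, 0.31 with replicate 1 alone and 0.010 to 0.82 when 1 PCL12 library was left out. Averaged over the lines, the Log2FC of ICAM1 was 0.50 (SE 0.21, adjusted p = 1 in edgeR) and 0.52 with the block (adjusted p = 0.00702 in edgeR and 0.0105 in limma-voom). The response of MEC2 exceeded that of HG3 by 0.79 on the log2 scale, and this difference did not pass the test (edgeR, adjusted p = 1, also with the block).

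The promoter window of ICAM1 is shown because the gene was higher after CpG in every pair, with a call in MEC2 that rests on the replicate block, and because the window holds letters of the kind that NF-κB binds. The RefSeq window (GRCh38.p14, chr19:10270870-10271089, plus strand, bases -250 to -31 from the RefSeq start) lies upstream of the gene, which GENCODE release 44 places at chr19:10271093-10286615. Capitals mark the match to the motif GGNNNTTCC, searched on both strands, at -186 to -178. The motif was matched there on both strands.
ICAM1 promoter: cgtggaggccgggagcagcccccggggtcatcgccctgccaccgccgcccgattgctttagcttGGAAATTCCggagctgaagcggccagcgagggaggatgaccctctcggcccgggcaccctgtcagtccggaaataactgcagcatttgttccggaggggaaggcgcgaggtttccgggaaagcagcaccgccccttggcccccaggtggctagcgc
This motif was present in 20.1% of 35116 RefSeq windows of 300 bases, so a match is common. Windows were found for 5 of the 9 genes, ICAM1, ICAM3, ITGB1, ITGB7 and CD44, and a further match to GGNNNTTCC lay in 1 of the 3 windows of ICAM3, at -7 to 1, while those of ITGB1, ITGB7 and CD44 held none. A second motif, GAGGAA, the core bound by the myeloid and B cell factor PU.1, was present in 27.9% of all windows and in windows of ICAM3, ITGB1 and ITGB7, and no match was found in those of ICAM1 and CD44.

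ICAM2 and ICAM3 are the ICAMs that resting lymphocytes carry, and neither passed the test after CpG. ICAM2 was lower after CpG in 8 of 9 pairs, with a median log2 ratio of -0.10 and a range from -1.24 to 0.12. The lowest of these ratios came from MEC2 replicate 2, whose stimulated library has the high mitochondrial share. ICAM3 was lower in 5 of 9 pairs and its ratios ran from -0.60 to 0.23. The Log2FC averaged over the lines was -0.23 (95% confidence interval -0.56 to 0.09) for ICAM2 and -0.08 (-0.42 to 0.25) for ICAM3, and both had an adjusted p of 1 in edgeR.

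The chains of LFA-1 did not pass the test either. ITGAL, the alpha chain, was lower after CpG in 7 of 9 pairs, and the exceptions were replicate 2 of HG3 (0.09) and of MEC2 (0.23), each the pair that includes a library with a high mitochondrial share. Its Log2FC averaged over the lines was -0.18 (95% confidence interval -0.48 to 0.12). ITGB2, the beta chain, was lower in 6 of 9 pairs with ratios from -0.76 to 0.21, and its averaged Log2FC was -0.13 (95% confidence interval -0.48 to 0.22). These intervals leave room for a decrease of about the size of the ICAM1 difference, so an unaltered level was not shown.

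ITGB7 was lower after CpG in 7 of 9 pairs, with a median log2 ratio of -0.33. Its averaged Log2FC was -0.23 (95% confidence interval -0.53 to 0.07, edgeR adjusted p = 1). ITGB1 was the gene whose pairs split by line. In HG3 its level was 25.2, 10.1 and 32.6 CPM without CpG and 26.6, 17.4 and 37.0 CPM with it, and the Log2FC was 0.25. In MEC2 it was 19.6, 18.7 and 18.7 CPM without and 17.7, 12.04 and 18.5 CPM with CpG, and in PCL12 it was 75.5, 62.3 and 61.3 CPM without and 59.0, 51.1 and 55.4 CPM with CpG. The groups of MEC2 did not overlap, nor did those of PCL12, and 2.2% and 2.02% of all genes were lower without overlap in these lines. The Log2FC was -0.24 in MEC2 and -0.27 in PCL12 (edgeR, adjusted p = 1 for both). In HG3 the low value of 10.1 CPM was that of the unstimulated library with the high mitochondrial share, and without it the Log2FC in HG3 was -0.08.

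SELPLG encodes PSGL-1, the main ligand of P-selectin. It was lower after CpG in 6 of 9 pairs with ratios from -1.01 to 0.33, and the averaged Log2FC was -0.21 (95% confidence interval -0.71 to 0.29). CD44, the hyaluronan receptor, was higher in every pair, as ICAM1 was. In HG3 it had 477.5, 364 and 964 CPM without CpG and 695, 677 and 1037 CPM with it. In MEC2 it had 142, 162.5 and 168 CPM without and 299, 209 and 254 CPM with CpG, and the groups did not overlap. In PCL12 it had 416, 439 and 321 CPM without and 941, 673 and 367 CPM with CpG. The groups overlapped in HG3 and PCL12, where replicate 3 stood apart from the other replicates.

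The Log2FC of CD44 was 0.42 in HG3 (95% confidence interval -0.25 to 1.08), 0.69 in MEC2 (0.02 to 1.35) and 0.75 in PCL12 (0.09 to 1.42), and with PCL12 replicate 1 alone it was 1.18 in that line. With 1 library of the line left out, the HG3 value was 0.18 to 0.93, the MEC2 value 0.55 to 0.82 and the PCL12 value 0.40 to 1.05. The largest HG3 log2 ratio of CD44, 0.90, came from replicate 2, whose unstimulated library has the high mitochondrial share, and without the libraries of high share the HG3 value was 0.16. Averaged over the lines it was 0.62 (SE 0.19, edgeR adjusted p = 1). With the replicate block the same average had an adjusted p of 0.000351 in edgeR and 0.0320 in limma-voom. In bulk RNA, a larger share of cells with the transcript and more transcript per cell cannot be told apart.

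**Figure D2:**
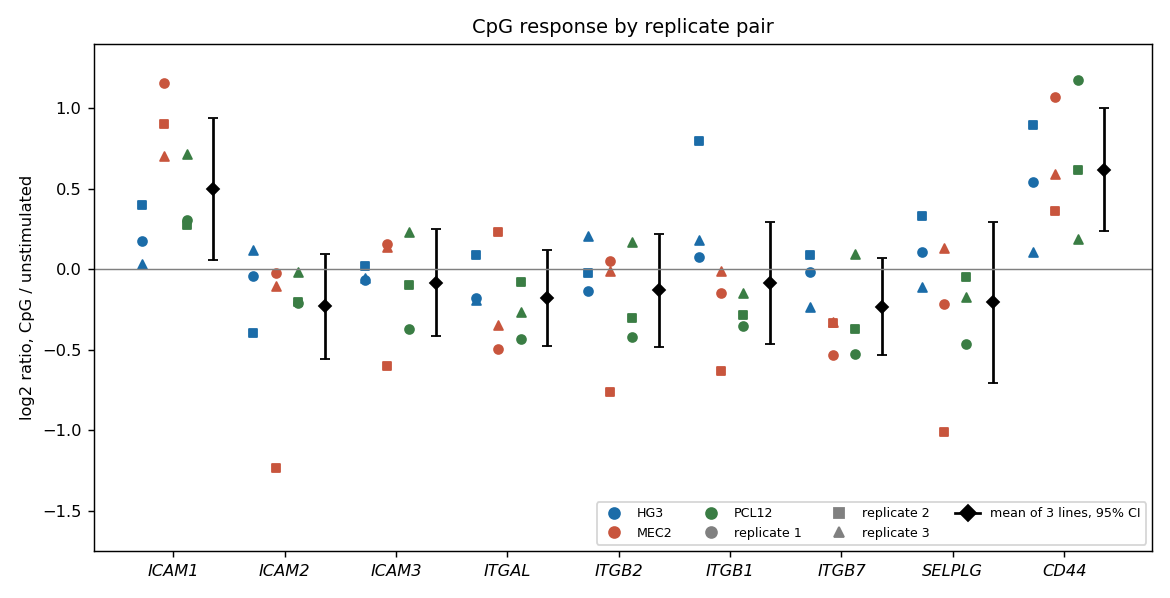
Log2 ratio of the CpG-stimulated to the unstimulated library of each replicate pair (vertical axis) for the 9 genes (horizontal axis), coloured by line, with a marker shape for each replicate. Black diamonds are the edgeR Log2FC averaged over the 3 lines with 95% confidence intervals, which lie above 0 for ICAM1 (0.50) and CD44 (0.62) and cross 0 for the other genes.

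The second question was how the unstimulated lines differed. Between unstimulated MEC2 and HG3, 3 of the 9 genes passed an adjusted p of 0.05, where 9.78% of all genes did, with ITGB2 higher and CD44 and SELPLG lower in MEC2. Between PCL12 and HG3 it was also 3 of 9 (9.44% of all genes), namely ITGB2, ITGB1 and ITGB7, all higher in PCL12. Between PCL12 and MEC2 it was 3 of 9 (2.05% of all genes), with ITGB1, ITGB7 and CD44 higher in PCL12. These comparisons share groups, so they are not independent of each other. Without overlap between the groups, MEC2 was higher than HG3 for 2 genes (11.6% of all genes) and lower for 6 (10.6%), PCL12 was higher than HG3 for 3 (11.8%) and lower for 1 (9.36%), and PCL12 was higher than MEC2 for 4 (9.75%).

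**Figure D3:**
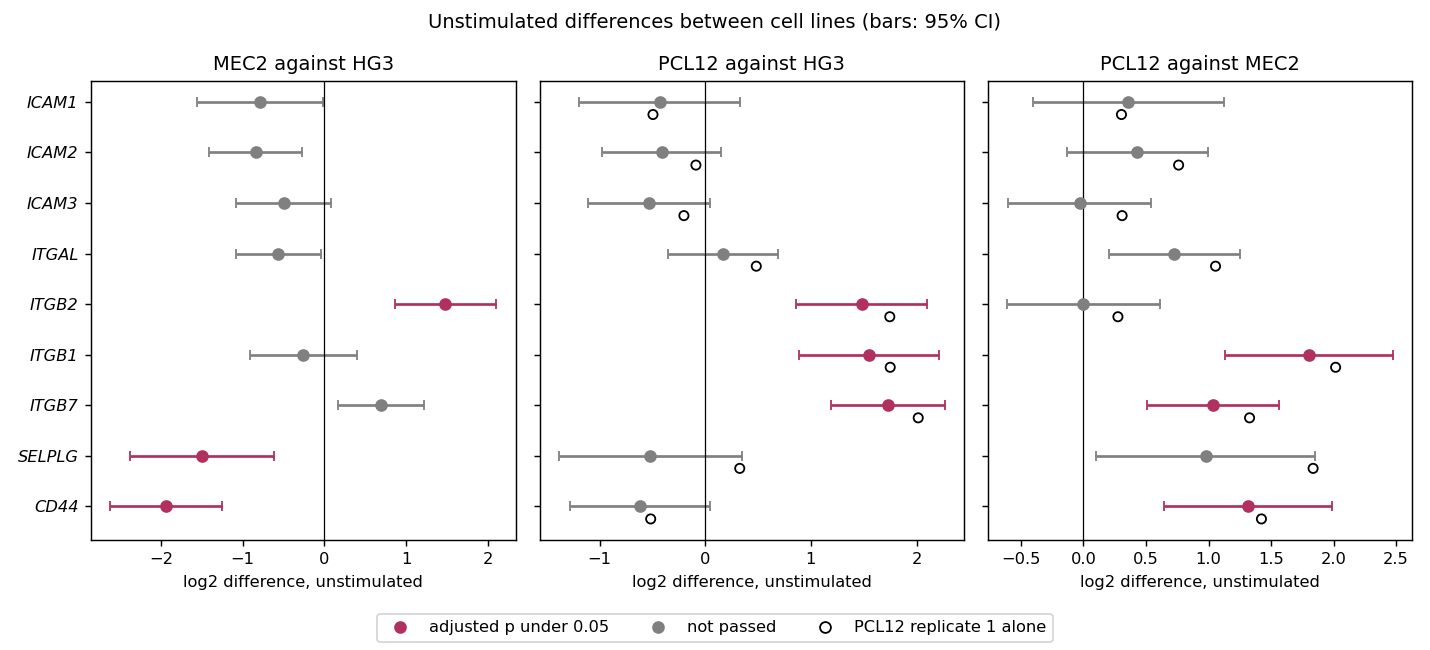
Log2 differences of unstimulated levels between lines (horizontal axes) for the 9 genes (vertical axis), with 95% confidence intervals from edgeR. Coloured points passed an adjusted p of 0.05, grey ones did not, and open circles are the values with PCL12 replicate 1 alone. ITGB2 lies near 1.48 in both comparisons with HG3 and near 0 between PCL12 and MEC2.

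Among the ICAMs no difference passed in these fits. ICAM1 averaged 530.1 ± 232 CPM in HG3, 307 ± 56.0 CPM in MEC2 and 394 ± 200.2 CPM in PCL12 (SD, n = 3). The order was HG3, PCL12 and MEC2, and no neighbours in it passed the test. The log2 difference of MEC2 from HG3 was -0.79 (edgeR, adjusted p = 0.216). It passed in 1 of 8 alternatives, without a filter on low counts (adjusted p = 0.0450), and in 0 of 6 fits with 1 library left out. In those 6 fits the difference ran from -0.94 to -0.37. The edgeR adjusted p was 0.1675 to 0.5997, highest without HG3 replicate 3. ICAM2 was 39.8, 39.5 and 35.3 CPM in HG3, 21.1, 26.8 and 16.0 CPM in MEC2 and 35.5, 28.7 and 22.0 CPM in PCL12. Every HG3 library was above every MEC2 library, and the log2 difference of MEC2 from HG3 was -0.84 (SE 0.28) with an adjusted p of 0.0518 in edgeR, 0.0189 in DESeq2 and 0.0404 in limma-voom. With 1 library left out it passed in 1 of 6 edgeR fits (adjusted p 0.0423 to 0.232), and with library totals the edgeR adjusted p was 0.116. ICAM3 averaged 182 ± 21.1 CPM in HG3, 129 ± 36.04 CPM in MEC2 and 126 ± 41.0 CPM in PCL12, with adjusted p values of 0.295 and 0.270 against HG3 in edgeR. The log2 difference of PCL12 from HG3 was -0.53 for ICAM3, or -0.20 with replicate 1 alone.

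The LFA-1 chains differed from each other in their pattern across the lines. ITGB2 was low in HG3, at 103, 44.6 and 72.4 CPM, and stood at 225, 223 and 167 CPM in MEC2 and 244, 196 and 176 CPM in PCL12. No library of MEC2 or PCL12 reached down to the HG3 values. The log2 difference was 1.48 (SE 0.30) from HG3 to MEC2 (edgeR, adjusted p = 0.00136), a fold of 2.79, and also 1.48 (SE 0.30) from HG3 to PCL12 (edgeR, adjusted p = 0.00137), or 1.75 (adjusted p = 0.0139) with PCL12 replicate 1 alone. Between PCL12 and MEC2 the difference in ITGB2 was 0.00 with a 95% confidence interval from -0.61 to 0.61. ITGAL averaged 268 ± 52.0 CPM in HG3, 181 ± 27.6 CPM in MEC2 and 300.2 ± 63.6 CPM in PCL12. The MEC2 libraries were the lowest for ITGAL and overlapped with neither other line, with a log2 difference of -0.56 from HG3 (edgeR, adjusted p = 0.191) and one of 0.73 between PCL12 and MEC2 (edgeR, adjusted p = 0.192). Both passed only with the libraries of high mitochondrial share left out (edgeR, adjusted p = 0.0370 and 0.0282). That setting was chosen after seeing the data. It removed no unstimulated PCL12 or MEC2 library, and the difference between these lines stayed at 0.73. ITGB2 and its antisense gene ITGB2-AS1 overlap in their exons on opposite strands, as do 7 of the other 8 genes with some annotated gene, SELPLG being the exception. The methods call the libraries stranded, of the reverse kind, and whether the counting used the strand was not given in the sources used here.

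ITGB1 and ITGB7 were highest in PCL12. ITGB1 was 75.5, 62.3 and 61.3 CPM in PCL12, against at most 32.6 CPM in HG3 and 19.6 CPM in MEC2. The log2 difference was 1.55 (SE 0.32, edgeR adjusted p = 0.00172) from HG3 and 1.81 (SE 0.33, edgeR adjusted p = 0.00154) from MEC2, a fold of 3.49, and with PCL12 replicate 1 alone the adjusted p values were 0.0263 and 0.0160. HG3 and MEC2 did not differ detectably in ITGB1 (-0.26, 95% confidence interval -0.91 to 0.40). ITGB7 was lowest in HG3, with 243, 183 and 204.5 CPM, followed by MEC2 with 325, 288.5 and 406 CPM and PCL12 with 839, 549.5 and 700.4 CPM. None of these groups overlapped with another. PCL12 exceeded HG3 by 1.73 (SE 0.26, edgeR adjusted p = 3.9e-05), a fold of 3.31, or by 2.01 (adjusted p = 0.000647) with replicate 1 alone, and MEC2 exceeded HG3 by 0.69 (edgeR, adjusted p = 0.0927).

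The difference of ITGB7 between PCL12 and MEC2 was 1.04 (SE 0.26, edgeR adjusted p = 0.0284). It did not pass with PCL12 replicate 1 alone (1.33, adjusted p = 0.0586) or when replicate 1 or 2 of MEC2 or replicate 1 or 3 of PCL12 was left out, where the log2 difference was 0.87 to 1.04 and the adjusted p 0.0556 to 0.207.

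SELPLG was 37.0, 30.4 and 52.4 CPM in HG3 and 16.6, 17.4 and 8.52 CPM in MEC2, and the groups did not overlap. The log2 difference was -1.50 (SE 0.43, edgeR adjusted p = 0.0250). The call was lost when replicate 1 or 3 of HG3 or of MEC2 was left out, with adjusted p values of 0.0512 to 0.126 in edgeR and differences from -1.23 to -1.60, and when both libraries with a high mitochondrial share were left out (-1.66, adjusted p = 0.0662). In PCL12, SELPLG was 49.5, 21.0 and 13.0 CPM, so that replicate 1 lay in the range of HG3 and replicate 3 in the range of MEC2. With all libraries the difference of PCL12 from MEC2 was 0.98 (edgeR, adjusted p = 0.376). It was 0.26 to 1.33 when 1 library was left out and 1.84 with PCL12 replicate 1 alone. From HG3 the difference of PCL12 was -0.52 with all libraries and did not pass (edgeR, adjusted p = 0.494). It was -1.22 to -0.16 when 1 library was left out and 0.33 with PCL12 replicate 1 alone. SELPLG was the gene that gained a call when PCL12 replicates 2 and 3 were left out.

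**Figure D4:**
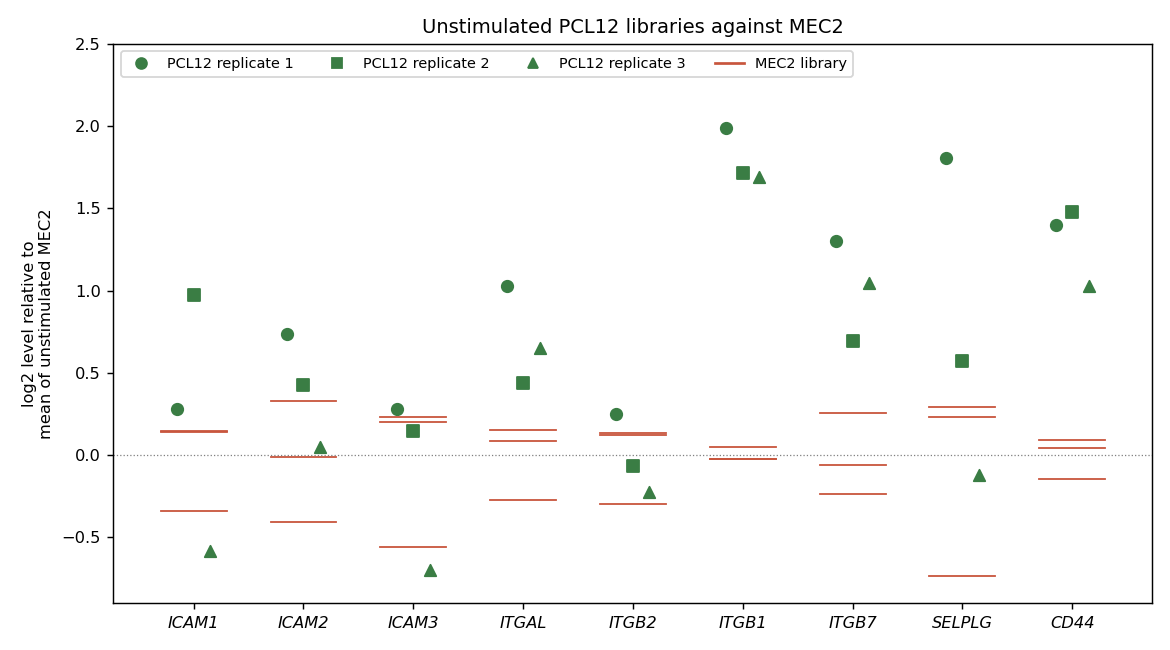
Log2 level of the 9 genes (horizontal axis) in each unstimulated PCL12 library relative to the mean of unstimulated MEC2 (vertical axis). Green markers are PCL12 replicates and red lines are the 3 MEC2 libraries; SELPLG spans 1.81 in replicate 1 to -0.12 in replicate 3, while the ITGB1 markers lie between 1.69 and 1.99.

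CD44 was 477.5, 364 and 964 CPM in HG3 and 142, 162.5 and 168 CPM in MEC2, and the lowest HG3 library was above every MEC2 library. The log2 difference was -1.93 (SE 0.33, edgeR adjusted p = 0.000199), which is 3.82-fold lower in MEC2, and it passed when each of these libraries was left out in turn. PCL12, with 416, 439 and 321 CPM, lay between these lines in its mean and within the range of HG3 for replicates 1 and 2. Its difference from HG3 was -0.62 (edgeR, adjusted p = 0.264), or -0.52 (adjusted p = 0.723) with replicate 1 alone. From MEC2 it was 1.31 (SE 0.33, edgeR adjusted p = 0.0287), and this call was lost with PCL12 replicate 1 alone (1.42, adjusted p = 0.0955), in limma-voom (adjusted p = 0.0621) and when any of replicates 1, 2 and 3 of MEC2 or replicates 1 and 2 of PCL12 was left out (1.22 to 1.36, adjusted p 0.0724 to 0.155).

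Genes that work with these molecules were followed in 5 lists. With 1 mean per group in edgeR, CpG changed 0 of the 22 other integrin chains, 0 of 26 genes of integrin activation and actin linkage, 0 of 16 immunoglobulin-superfamily partners, 0 of 14 tested selectin and selectin-ligand enzyme genes and 0 of 16 CD44 and ICAM partners, in each of the 3 lines. Of all genes, 0.00314% passed in HG3 and in MEC2 and 0% in PCL12, so these counts say nothing particular of the lists. In the blocked fit, in which 0.555% of all genes passed in the mean of the lines, 1 integrin chain did, ITGB8, which pairs with ITGAV and can activate latent TGF-β. ITGB8 was higher after CpG in 9 of 9 pairs, with means of 35.95 and 47.0 CPM in HG3, 10.55 and 16.1 CPM in MEC2 and 2.35 and 4.396 CPM in PCL12 without and with CpG, and the adjusted p with the block was 0.00358 in edgeR. CHST4, a sulfotransferase for selectin ligands, also passed in MEC2 with the block (edgeR, adjusted p = 0.0278, where 0.333% of all genes passed), on 4 counts without CpG and 32 with it over 3 libraries each. No blocked limma-voom value is given for ITGB8 or CHST4, so these calls rest on the blocked edgeR fit alone.

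Between the unstimulated lines, the other integrin chains differed in 6 of 22 cases both for MEC2 and for PCL12 against HG3 (2 higher and 4 lower in each), and in 2 of 22 between PCL12 and MEC2. Of all genes, 9.78%, 9.44% and 2.05% passed in these 3 comparisons, the shares against which the counts of all 5 lists are to be read. The median Log2FC of the list was -0.36 for MEC2 and -0.30 for PCL12 against HG3, where that of all genes was 0. ITGA9 had 15.8, 2.99 and 12.4 CPM in HG3 and at most 0.401 CPM in unstimulated cells of the other lines. ITGB8 was 42.2, 19.9 and 45.8 CPM in HG3, 12.9, 13.8 and 4.99 CPM in MEC2 and 1.80, 2.07 and 3.18 CPM in PCL12, and it was lower in PCL12 than in MEC2 too (-2.16, edgeR adjusted p = 0.00235, or 0.0492 with replicate 1 alone). ITGA11, a collagen-binding chain, was at 4.09, 3.20 and 2.08 CPM in HG3 and at no more than 0.0357 CPM in the other unstimulated libraries. In the other direction, ITGB5 was at 3.54, 1.91 and 2.00 CPM in HG3 and at 23.0, 16.2 and 7.55 CPM in MEC2, and ITGA3 was higher in PCL12 than in MEC2 by 1.26 (edgeR, adjusted p = 0.0230, or 0.139 with PCL12 replicate 1 alone).

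ITGA4, the alpha chain that pairs with ITGB1 and ITGB7, and ITGAX, which pairs with ITGB2, were added after their values had been seen. ITGA4 was 301, 75.9 and 203 CPM in HG3, 174, 126 and 160.0 CPM in MEC2 and 22.5, 57.3 and 106 CPM in PCL12. The line with the highest ITGB1 and ITGB7 thus had the lowest mean of ITGA4, with a log2 difference from HG3 of -1.64 (edgeR, adjusted p = 0.0995) with all libraries and -3.08 (adjusted p = 0.00144) with PCL12 replicate 1 alone. ITGAX was at most 1.65 CPM in unstimulated HG3, 23.1, 22.2 and 9.20 CPM in MEC2 and 102, 47.4 and 45.0 CPM in PCL12. Its order across the lines put HG3 lowest, as for ITGB2, with log2 differences from HG3 of 4.03 for MEC2 (edgeR, adjusted p = 0.0286) and 5.87 for PCL12 (edgeR, adjusted p = 0.00452, or 0.0399 with replicate 1 alone).

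In the list of integrin activation and actin linkage, 7 of 26 genes differed between MEC2 and HG3 (3 higher, 4 lower) and 6 of 26 between PCL12 and HG3 (4 higher, 2 lower), and 0 of 26 differed between PCL12 and MEC2. TLN2, a form of talin, the protein that binds beta chain tails, was at 13.8, 6.71 and 8.79 CPM in HG3. It was at most 1.80 CPM in MEC2 and 1.11 CPM in PCL12. The difference from PCL12 did not pass with replicate 1 alone, a fit with 1 library, though its 0.866 CPM was near the PCL12 mean of 0.886 CPM. FERMT2 and SKAP1, a kindlin and an adaptor of LFA-1 activation, were lower in MEC2 than in HG3 by -1.98 and -1.12 (edgeR, adjusted p = 0.00481 and 0.00571). PARVG and RASGRP2, a parvin of blood cells and an activator of RAP1, were higher in PCL12 than in HG3 by 1.61 and 1.52 (edgeR, adjusted p = 0.00137 and 0.0156), and with PCL12 replicate 1 alone the adjusted p values were 0.0173 and 0.166.

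Of the 16 immunoglobulin-superfamily partners, 6 differed between MEC2 and HG3 (1 higher, 5 lower), 6 between PCL12 and HG3 (3 in each direction) and 1 between PCL12 and MEC2. JAM3, a junctional adhesion molecule, was at most 0.980 CPM in unstimulated HG3 and 16.9, 18.9 and 19.4 CPM in MEC2 and 13.1, 19.3 and 16.2 CPM in PCL12. PECAM1 was 16.2, 7.996 and 14.1 CPM in HG3 and at most 2.66 CPM in MEC2 and 5.35 CPM in PCL12, where the call was lost with replicate 1 alone (edgeR, adjusted p = 0.571). DPP4, in the list though it is a peptidase outside this superfamily, was 14.3, 8.87 and 23.4 CPM in HG3 and 19.1, 9.27 and 10.54 CPM in PCL12. It was lowest in MEC2, with 3.32, 1.67 and 1.54 CPM. CD47 was higher in PCL12 than in HG3 by 1.33 (edgeR, adjusted p = 0.000633, or 0.0300 with replicate 1 alone).

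Of the 14 tested selectin genes and enzymes that build selectin ligands, 5 differed between MEC2 and HG3 and 5 between PCL12 and HG3 (2 higher, 3 lower in each), and 1 differed between PCL12 and MEC2. CHST4 was 4.66, 5.16 and 8.58 CPM in HG3 and at most 0.114 CPM in the other unstimulated libraries. FUT4, a fucosyltransferase, was lower than in HG3 by -1.60 in MEC2 and -1.98 in PCL12 (edgeR, adjusted p = 0.00590 and 0.000828). The PCL12 call was lost with replicate 1 alone, a fit with 1 library, though its 7.342 CPM was near the PCL12 mean of 7.325 CPM. ST3GAL6, a sialyltransferase, was 14.5, 35.5 and 17.6 CPM in HG3 and 33.9, 28.6 and 28.0 CPM in PCL12, and was lowest in MEC2 with 4.56, 4.94 and 4.62 CPM. TPST2, which sulfates tyrosines such as those of PSGL-1, was higher in PCL12 than in HG3 by 1.52 (edgeR, adjusted p = 0.00232, or 0.00119 with replicate 1 alone).

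Among the CD44 and ICAM partners, 3 of 16 differed between MEC2 and HG3 (1 higher, 2 lower), 4 between PCL12 and HG3 (2 in each direction) and 0 between PCL12 and MEC2. SRGN, whose product serglycin can be bound by CD44, and VIM, which encodes vimentin, were lower in MEC2 than in HG3 by -1.53 and -2.22 (edgeR, adjusted p = 0.00185 and 0.00894), the same direction as CD44. ADAM10, a protease that can shed CD44, was higher in MEC2, with 178, 148 and 152 CPM against 85.7, 37.6 and 86.2 CPM in HG3 (1.19, edgeR adjusted p = 0.00278). ANK3, an ankyrin, was at most 0.210 CPM in unstimulated HG3 and 3.62, 2.03 and 5.01 CPM in PCL12, while HMMR and CD74 passed between PCL12 and HG3 with all libraries (1.00 and -0.92, edgeR adjusted p = 0.0216 and 0.0302) and not with replicate 1 alone (adjusted p = 0.403 and 0.730). With PCL12 replicate 1 alone, the numbers that passed against HG3 were 7 of 22 other integrin chains, 1 of 26 genes of integrin activation and actin linkage, 3 of 16 immunoglobulin-superfamily partners, 2 of 14 selectin and selectin-ligand enzyme genes and 1 of 16 CD44 and ICAM partners, in place of 6, 6, 6, 5 and 4. The share of all genes that passed was 4.35% in that fit, in place of 9.44%, so a lower count is no result about a list. Against MEC2 the number was 3 in place of 1 for the selectin and selectin-ligand enzyme genes, and 2 in both fits for the other integrin chains, of which 1 passed in both (1.98% of all genes passed with replicate 1 alone).

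The pattern of each gene over the 18 libraries was compared with that of the 10659 genes averaging 5 CPM or more, as a description in which all values of a library share its depth and composition. ICAM1 was most like TRAF1, a TNF receptor adaptor (Pearson r = 0.972 on log2 CPM), and CEBPG (0.932). ITGB1 was most like XYLT1 (0.972) and PPP1R9A (0.930), ITGB7 most like ALDH3A2 (0.971) and APOL3 (0.958), and CD44 most like DTX4 (0.959) and STAT5A (0.931). For ICAM2 these genes were ANXA2 (0.956) and MAF1 (0.951), for ICAM3 EIF1 (0.951) and BRI3 (0.950), for ITGAL ZBTB4 (0.888) and LILRB4 (0.876), for ITGB2 RPL39L (0.950) and CCDC69 (0.949), and for SELPLG QPRT (0.949) and VAT1 (0.945).

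Within groups, after the group means had been removed, the 9 genes did not all vary together. ICAM3 and SELPLG (r = 0.79), ICAM2 and SELPLG (0.77), ICAM1 and ICAM3 (0.76), ITGB2 and ITGB1 (0.76) and ICAM2 and ICAM3 (0.75) had the highest correlations over the 18 libraries, and ICAM1 and CD44 had 0.63. ITGB7 ran against ICAM1 (-0.70) and ICAM3 (-0.52). The chains of LFA-1, ITGAL and ITGB2, had a correlation of 0.27. These values describe differences between replicates of a group and include those between PCL12 replicate 1 and replicates 2 and 3.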

How the data were processed

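The 9 genes and the gene lists were chosen with earlier results of these data known. The values are gene counts as deposited by the authors, without normalization, for 18 libraries. The submitters' processing notes name FastQC, MultiQC, Trimmomatic, STAR, featureCounts and hg38, with no versions, and the handling of duplicate reads is not given in the sources used here. The labels name a Promega RNA kit and Lexogen QuantSeq libraries, which read mainly transcript ends, while the methods of the paper name a Qiagen kit and stranded libraries, so CPM were not compared between genes. Counts of PCR copies are not independent molecules.

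Genes with at least 10 counts in all were kept (31872 of 42248 with at least 1 count). TMM-scaled counts were fitted with edgeR 4.0.16 in R 4.3.3 (robust quasi-likelihood, 6 group means, 12 residual degrees of freedom), with Benjamini-Hochberg adjustment over the genes tested. Standard errors come from the F statistic. The code was tested on simulated data. Alternatives were DESeq2 1.42.0, limma-voom (limma 3.58.1), RLE scaling, library totals, filterByExpr, no filter, each library left out, PCL12 replicate 1 alone and, chosen after seeing the data, both libraries with a high mitochondrial share left out. The replicate block (9 pairs, 6 residual degrees of freedom) follows the series' description, in which a replicate series holds a stimulated and a control sample. For the 9 genes and NFKBIZ, the blocked edgeR P values in effect match a normal distribution. They thus rest on a spread estimated over many genes, and not on 6 degrees of freedom of each gene. Same-numbered libraries correlated after removal of group means by 0.411, 0.391 and 0.643 (HG3), 0.306, 0.0853 and 0.720 (MEC2) and 0.735, 0.625 and 0.598 (PCL12), and in MEC2 CpG replicate 1 correlated more with unstimulated replicate 2 (0.487) and CpG replicate 2 more with unstimulated replicate 1 (0.443). No group held libraries that differed by less than sampling noise (chi-square per gene 18.8 to 431).

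Named genes are the 9 genes, up to 3 genes with the smallest P per list and comparison among those past an adjusted p of 0.05, the 2 most correlated genes for each of the 9, NFKBIZ as a check of the stimulation and the cell type markers. ITGA4 and ITGAX fall outside this rule and were added after their values had been seen. Marker lists were those of B cells, T cells (CD3D at 0 in 17 libraries, TRAC at 34.4 to 127.9 CPM), monocytes, endothelial cells and fibroblasts (summed 5.27 to 81.9 CPM, mostly COL1A1). Positions are from GENCODE release 44 on GRCh38, promoter windows from RefSeq. A marker and a list gene are not reported here.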

Additional observations from a re-analysis of the deposited data

Results flagged for a closer look

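ITGB1 moved in opposite directions between lines after CpG. All 3 pairs of HG3 were higher after CpG, with a median log2 ratio of 0.1813, and all 3 pairs of MEC2 (-0.1485) and of PCL12 (-0.2859) were lower. The fitted difference of the responses was -0.49 between MEC2 and HG3 (edgeR, adjusted p = 1) and -0.52 between PCL12 and HG3 (edgeR, adjusted p = 1), so neither passed. The largest HG3 ratio, 0.79, came from replicate 2, whose unstimulated library had 20.2% mitochondrial counts. With both libraries of high mitochondrial share left out, the HG3 response of ITGB1 was -0.099. Groups of 3 were too small for the search for outlying samples.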

How the results depend on the processing

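With the replicate block, the number of the 9 genes that passed for CpG was 1 in MEC2 and 2 in the mean of the lines, in edgeR and in limma-voom alike, in place of 0, and the block changed no other call of the 9 genes. Between PCL12 and MEC2 the number that passed was 1 to 2 when a library was left out, in place of 3. Directions turned for the following values among others, and none of those given had passed the test. With both libraries of high mitochondrial share left out, CpG values in HG3 were -0.0032 for ICAM1 and -0.099 for ITGB1, and the CpG response of ITGB1 in MEC2 minus that in HG3 was 0.030, in place of -0.49. With PCL12 replicate 1 alone, PCL12 minus HG3 was 0.33 for SELPLG, in place of -0.52, and PCL12 minus MEC2 was 0.31 for ICAM3 and 0.28 for ITGB2. Library totals gave 0.012 for ICAM3 and 0.037 for ITGB2 in the last comparison, and no filter gave 0.023 for ITGB2. The cause was not tested. For genes averaging 5 CPM or more, the median difference of PCL12 from HG3 was 0.168 with library totals and 0.013 with TMM, the largest such shift. Leaving out 1 library was run for the CpG response of single lines for ICAM1, CD44 and ITGB1, for differences of these responses from HG3 for ITGB1 in both lines and ICAM1 in MEC2, and for the mean response and the line differences for all 9 genes. The ranges that crossed 0 were -0.13 to 0.59 for ICAM1 and -0.077 to 0.61 for ITGB1 in HG3, -0.20 to 0.033 for ITGB1 and -0.38 to 0.031 for SELPLG in the mean response, -0.59 to 0.099 for ITGB1 between MEC2 and HG3, -0.018 to 0.34 for ITGAL between PCL12 and HG3, and -0.092 to 0.68 for ICAM1, -0.25 to 0.22 for ICAM3 and -0.15 to 0.11 for ITGB2 between PCL12 and MEC2. The calls of ITGB2 against HG3 in both other lines, of ITGB1 and ITGB7 between PCL12 and HG3, of CD44 between MEC2 and HG3 and of ITGB1 between PCL12 and MEC2 passed in every alternative run. With 3 libraries a group, changes of the size seen for ICAM2, ITGAL and ITGB7 after CpG could not be told from 0.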
